A study of Mus musculus with 6 samples.

Results

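Desmin (Des), vimentin (Vim), nestin (Nes), synemin (Synm) and the nuclear lamins (Lmna, Lmnb1, Lmnb2) were followed by their symbols in the deposited count table, and all 7 were found among its 22272 distinct genes. The libraries came from C2C12 cells, an immortal line of mouse myoblasts, kept undifferentiated and taken at day 0. In 3 libraries the cells overexpressed ChREBP-beta, a short form of the glucose-responsive transcription factor ChREBP, encoded by Mlxipl. In the other 3 libraries, whose genotype the labels give as wild type, the cells carried green fluorescent protein (GFP). The labels do not state how the proteins were introduced or whether replicates were separate cultures, and the spread behind each p-value may therefore be technical only.

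Intermediate filaments are rope-like polymers that give cells and nuclei mechanical strength. Desmin is the filament of muscle, which ties the Z-discs of neighbouring myofibrils to each other and to the membrane, and it is made already by committed myoblasts. Vimentin, its close relative, is the main filament of mesenchymal and proliferating myogenic cells and gives way to desmin as fibres mature. Nestin and synemin are large partners that need desmin or vimentin to form filaments; nestin marks dividing precursors and synemin links the filaments to costameres in muscle. Lamins build the meshwork under the inner nuclear membrane: Lmna encodes lamins A and C by alternative splicing, and Lmnb1 and Lmnb2 encode the B-type lamins.

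The deposited counts summed to between 17600238 and 19163834 per library. Mlxipl stood at 219 ± 3.85 CPM (counts relative to the library size, adjusted by the trimmed mean of M values, TMM) with ChREBP-beta and at 0.599 ± 0.111 CPM with GFP (SD, n = 3 each). Markers of the myoblast state summed to 305 to 316 CPM in ChREBP-beta and 666 to 707 CPM in GFP libraries over 9 genes, Des among them. Some lineage genes of this list, picked after seeing values, were near 0 with ChREBP-beta. Myod1, the master regulator of myogenesis, averaged 1.23 CPM with ChREBP-beta and 30.8 CPM with GFP, Cdh15, M-cadherin, 0.939 and 15.8 CPM, and Pax7, the satellite cell factor, 0.116 and 2.53 CPM. Pax7 was thus low with GFP too, and Myf5, of the same list, averaged 2.57 CPM with ChREBP-beta and 7.35 CPM with GFP. Transcripts foreign to the line differed between libraries. The 5 lung epithelial markers summed to 90.4, 90.9 and 70.2 CPM in ChREBP-beta libraries 1 to 3. In GFP libraries 1 to 3 they summed to 0.523, 135 and 94.1 CPM. The 5 hepatocyte markers summed to 20.0, 15.2 and 14.7 CPM and to 0.209, 0.0553 and 23.5 CPM in the same order. Every ChREBP-beta library held both kinds. Of the GFP libraries, replicate 3 alone thus held both kinds, and the tests, list counts, ratios and class sums below were also computed without GFP replicates 1 and 2.

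Of the 7 filament and lamin genes, 6 passed the test between groups, 5 lower and 1 higher with ChREBP-beta (edgeR quasi-likelihood test, two-sided, Benjamini-Hochberg adjusted p under 0.05 over 12166 genes tested). In this comparison 58.7% of all tested genes passed, 29.3% lower and 29.5% higher, so that a gene that passes is common here and the sizes carry more than the count. Des and Synm were the members that differed at least 2-fold, both lower, against 7.42% of all tested genes that were called lower by that much. The ChREBP-beta and GFP libraries did not overlap for 6 of the 7 members, as for 63.2% of tested genes. The median log2 fold change over the 7 was -0.22, against -0.0040 over all tested genes. The deposited values of all 7 are whole numbers in every library. Other genes have fractions, which may mark reads shared between genes, but no source states this.

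**Figure D1:**
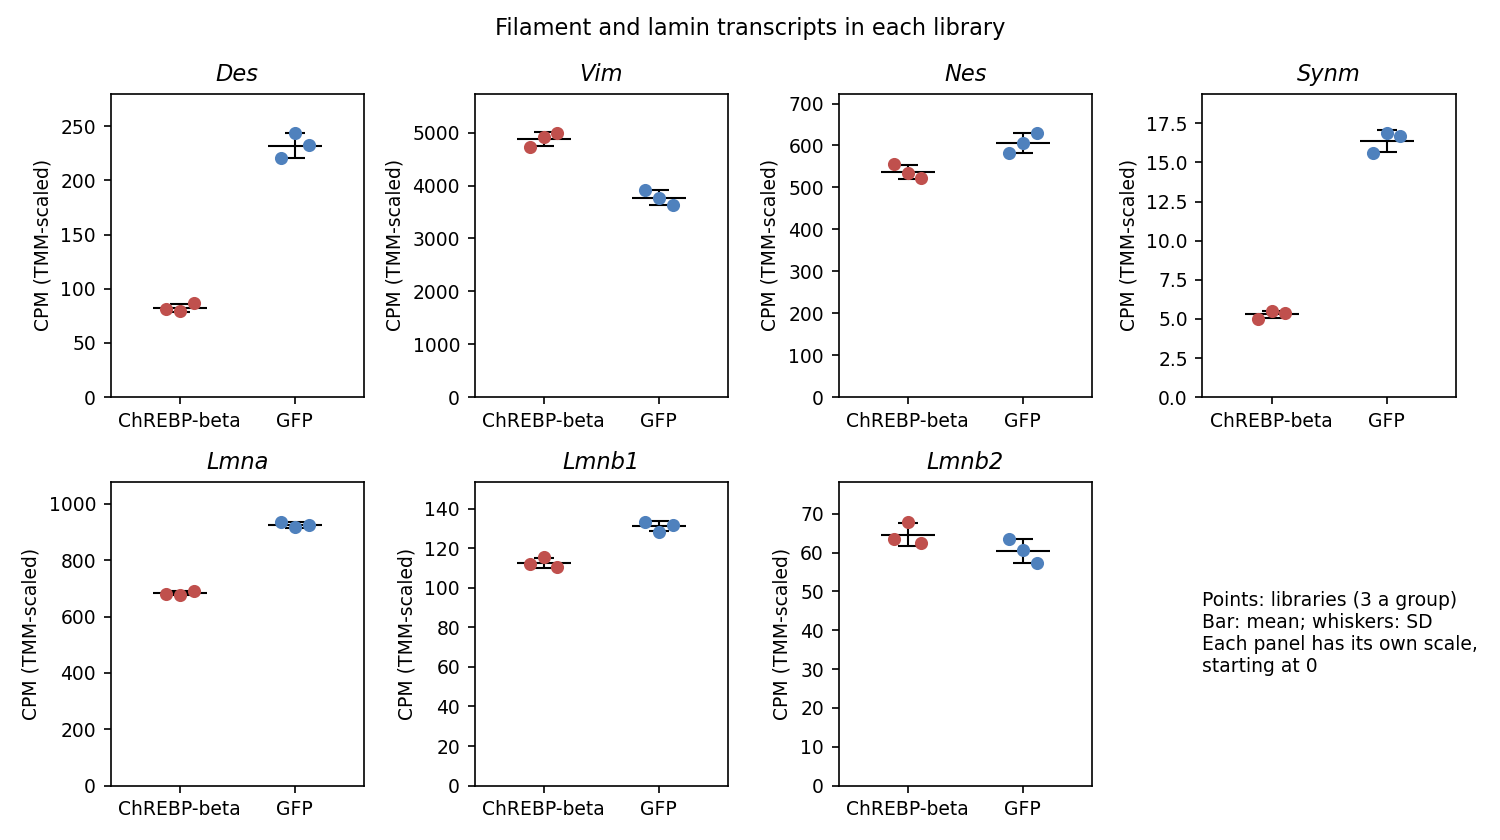
TMM-scaled CPM of each gene in the 3 ChREBP-beta libraries (left in each panel) and the 3 GFP libraries (right), with the mean and SD; each panel has its own axis from 0. Des and Synm sit far lower with ChREBP-beta, Vim is higher, and the Lmnb2 points overlap.

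Desmin showed the clearest fall. Des (ENSMUSG00000026208.9; chromosome 1, 75360329 to 75368579, plus strand, 9 exons; GRCm38) was read at 81.004, 79.7 and 86.7 CPM in ChREBP-beta libraries 1 to 3, against 220, 244 and 232 CPM in GFP libraries 1 to 3. Every ChREBP-beta library lay far below the lowest GFP value. The log2 fold change was -1.49 (SE 0.041, edgeR adjusted p = 4.15e-20). The level fell by 64.5%, and the size of the log2 change exceeded that of 93.0% of tested genes. An antisense gene lies across Des in the annotation, and no source states whether counting used strand, so reads of the pair cannot be told apart. The other myoblast markers moved the same way: all 9 of the list, Des included, were called lower, against 29.3% of all tested genes. The 8 without Des summed to 225 to 235 CPM with ChREBP-beta and 446 to 465 CPM with GFP. The largest terms of that sum were Vcam1 (98.7 and 166 CPM with ChREBP-beta and GFP) and Cd82 (59.5 and 94.9 CPM). Itga7 (34.3 and 71.1 CPM) and Ncam1 (31.4 and 69.8 CPM) followed. The log2 fold changes of Myod1 (-4.64), Pax7 (-4.43) and Cdh15 (-4.07) were larger in size than that of Des, whereas that of Myf5 (-1.51) was close to it. In bulk RNA, fewer cells of a type and less transcript per cell cannot be told apart, and the part of the myoblast programme in the Des difference was not tested.

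Synemin, desmin's partner at costameres, fell by nearly the same factor from a far lower level. Synm (ENSMUSG00000030554.16; chromosome 7, 67730160 to 67759742, minus strand, 4 exons) had 92, 103 and 93 counts in ChREBP-beta replicates 1 to 3, against 298, 305 and 299 counts in GFP replicates 1 to 3. In CPM these were 5.005, 5.48 and 5.38 with ChREBP-beta and 15.6, 16.9 and 16.7 with GFP, with a wide gap between the groups. The log2 fold change was -1.63 (SE 0.11, edgeR adjusted p = 5.02e-12), or 3.09-fold lower. Counting error is larger here than for the other members, at 10.2% per ChREBP-beta and 5.77% per GFP library. Ttc23, a gene annotated across Synm on the other strand, stood at 7.82 and 8.03 CPM with ChREBP-beta and GFP (edgeR adjusted p = 0.817). Another gene annotated there on the other strand is not among the deposited genes, so whether its reads were counted for Synm is not known.

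The promoter windows of both genes that fell most, and of Vim, which moved the other way, are shown because basic helix-loop-helix factors, among them ChREBP with Mlx and the MyoD family, bind hexamers of the form CANNTG. The windows run from 250 bases before to 50 after the RefSeq start (GRCm38.p6), and capitals mark every CANNTG. They lie at chr1:75360042-75360341 on the plus strand (Des), chr7:67759693-67759992 on the minus strand (Synm) and chr2:13574061-13574360 on the plus strand (Vim).
Des: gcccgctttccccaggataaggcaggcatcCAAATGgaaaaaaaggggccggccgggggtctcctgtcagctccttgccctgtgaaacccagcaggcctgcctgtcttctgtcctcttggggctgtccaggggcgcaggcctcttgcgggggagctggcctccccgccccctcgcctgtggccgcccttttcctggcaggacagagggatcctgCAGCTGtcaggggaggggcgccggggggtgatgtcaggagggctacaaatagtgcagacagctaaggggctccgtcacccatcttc
Synm: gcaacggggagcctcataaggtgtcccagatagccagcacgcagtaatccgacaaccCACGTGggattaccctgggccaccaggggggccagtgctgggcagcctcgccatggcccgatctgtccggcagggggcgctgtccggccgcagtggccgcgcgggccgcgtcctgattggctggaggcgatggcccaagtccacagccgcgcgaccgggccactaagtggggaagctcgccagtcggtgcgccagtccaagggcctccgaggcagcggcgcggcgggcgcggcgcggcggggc
Vim: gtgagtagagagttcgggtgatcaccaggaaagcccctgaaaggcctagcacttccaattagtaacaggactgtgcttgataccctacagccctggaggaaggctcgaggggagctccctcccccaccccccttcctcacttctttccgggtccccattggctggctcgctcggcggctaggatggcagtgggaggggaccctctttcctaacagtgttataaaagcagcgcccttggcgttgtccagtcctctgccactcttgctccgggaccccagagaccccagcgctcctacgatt
The Des window holds 2 matches, CAAATG at position -220 and CAGCTG at -36 from the start, and CAGCTG, a form bound by MyoD, is in 16.3% of the 32851 promoter windows of the same table. The Synm window holds 1, CACGTG at -193, the E-box core of the carbohydrate response element, which is in 7.15% of windows. Any CANNTG, searched on both strands and including the other hexamers named, is in 72.3% of windows, and the Vim window has 0. The Nes window and both Lmna windows also have 0, the Lmnb2 windows hold 4 and 1, and no window was available for Lmnb1. Whether these matches bear on the changes was not tested. Neither the MEF2 box nor the CArG box, motifs common at muscle genes, was matched in the 3 windows (3.19% and 1.63% of all windows hold them). These are matches of letters, and no binding was measured.

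Vimentin was by far the most abundant of the 7 and the member that rose. Vim (ENSMUSG00000026728.9; chromosome 2, 13573927 to 13582826, plus strand, 9 exons) was read at 4737, 4915 and 4991 CPM in ChREBP-beta libraries 1 to 3, against 3913, 3756 and 3637 CPM in GFP libraries 1 to 3. All ChREBP-beta libraries lay above all GFP libraries. The log2 fold change was 0.37 (SE 0.029, edgeR adjusted p = 4.28e-11), a rise of 29.5%. Vim ranked 12 by mean CPM among tested genes with ChREBP-beta and 13 with GFP. In CPM the rise of Vim (1113) was several times the fall of Des (-150 CPM, ChREBP-beta minus GFP), although Des changed more as a ratio.

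Nestin fell slightly. Nes (ENSMUSG00000004891.16; chromosome 3, 87971078 to 87980451, plus strand, 4 exons) was read at 555, 534 and 523 CPM in ChREBP-beta libraries 1 to 3, against 581, 605 and 630 CPM in GFP libraries 1 to 3. The groups were separate but close, the highest ChREBP-beta library standing just under the lowest GFP library. The log2 fold change was -0.17 (SE 0.031, edgeR adjusted p = 3.94e-05), and the level fell by 11.2%, while 38.9% of tested genes had a smaller log2 change. Of the neural and glial markers, where nestin is also typical, Sox10 had no count in any library, and the 7 of the list summed to 13.9 to 15.6 CPM with ChREBP-beta and 7.91 to 8.86 CPM with GFP. That sum moved the other way from Nes and rested mostly on Tubb3, a neuronal tubulin, at 12.7 CPM with ChREBP-beta and 5.10 CPM with GFP. Of the 3 tested, 1 was called higher, Tubb3, and 1 lower, Sox2, at 0.184 CPM with ChREBP-beta and 1.10 CPM with GFP. The list thus had no common direction.

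**Figure D2:**
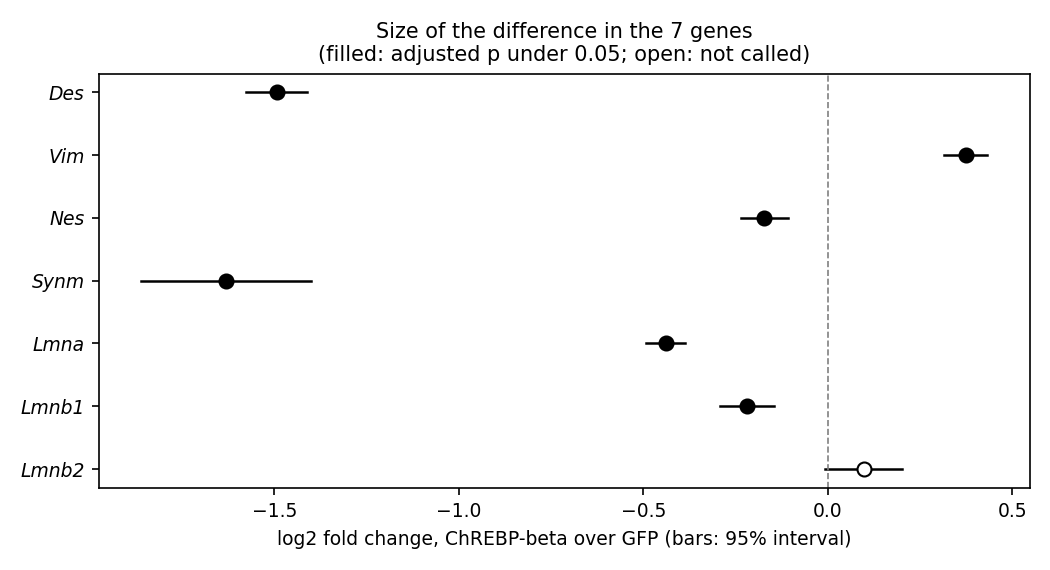
Log2 fold change of each of the 7 genes, ChREBP-beta over GFP, with its 95% interval from the edgeR fit. Synm (-1.63) and Des (-1.49) stand apart on the lower side, Vim (0.37) is the called gene on the higher side, and the interval of Lmnb2 includes 0.

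Among the lamins, the A-type gene fell most. Lmna (ENSMUSG00000028063.15; chromosome 3, 88480147 to 88509956, minus strand, 12 exons) was read at 680, 677 and 692 CPM in ChREBP-beta libraries 1 to 3, against 937, 916 and 924 CPM in GFP libraries 1 to 3. The libraries within a group differed little, with a coefficient of variation of 1.19% with ChREBP-beta and 1.13% with GFP, and the groups lay far apart. The log2 fold change was -0.44 (SE 0.026, edgeR adjusted p = 2.52e-13), and the level fell by 26.2%. Counts per gene do not separate lamin A from lamin C.

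Lmnb1 (ENSMUSG00000024590.8; chromosome 18, 56707813 to 56753424, plus strand, 11 exons), the B-type lamin known to be lost in senescent cells, was read at 112, 115 and 110 CPM in ChREBP-beta libraries 1 to 3, against 133, 128 and 132 CPM in GFP libraries 1 to 3. The groups did not overlap, and the log2 fold change was -0.22 (SE 0.035, edgeR adjusted p = 9.79e-06), and the level fell by 14.1%. Lmnb2 (ENSMUSG00000062075.13; chromosome 10, 80901203 to 80918245, minus strand, 12 exons) was read at 63.4, 68.0 and 62.6 CPM in ChREBP-beta libraries 1 to 3, against 63.5, 60.6 and 57.4 CPM in GFP libraries 1 to 3. These values overlap, and the log2 fold change of 0.10 was not called (95% interval -0.0080 to 0.20, edgeR adjusted p = 0.105). Without GFP replicate 1 it was called higher, at 0.13 (edgeR adjusted p = 0.0445), so that 1 library decides this call.

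Without GFP replicates 1 and 2, when the lone GFP library is assumed to vary like the others, the other 6 members kept their direction and their calls. The log2 fold changes were then -1.50 for Des, -1.66 for Synm, 0.42 for Vim, -0.23 for Nes, -0.44 for Lmna and -0.23 for Lmnb1, the largest edgeR adjusted p among them being 7.72e-04, for Lmnb1. Lmnb2 stood at 0.17 (edgeR adjusted p = 0.0516).

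Divided by the length of the longest coding transcript, the levels of the 7 genes differed widely. With ChREBP-beta the order was Vim at 2226 ± 59.4, Lmna at 216 ± 2.57, Nes at 87.7 ± 2.65, Lmnb1 at 39.6 ± 0.875, Des at 27.2 ± 1.22, Lmnb2 at 18.3 ± 0.826 and Synm at 0.676 ± 0.0317 CPM per kilobase (SD, n = 3). With GFP it was Vim at 1718 ± 62.9, Lmna at 293 ± 3.31, Nes at 98.8 ± 3.93, Des at 76.7 ± 3.83, Lmnb1 at 46.1 ± 0.912, Lmnb2 at 17.1 ± 0.862 and Synm at 2.09 ± 0.0878 CPM per kilobase (SD, n = 3). Des and Lmnb1 exchanged places between the groups, and within each group no neighbours in the order overlapped, nor did the order change when the union of all exons of coding transcripts was used as the length.

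**Figure D3:**
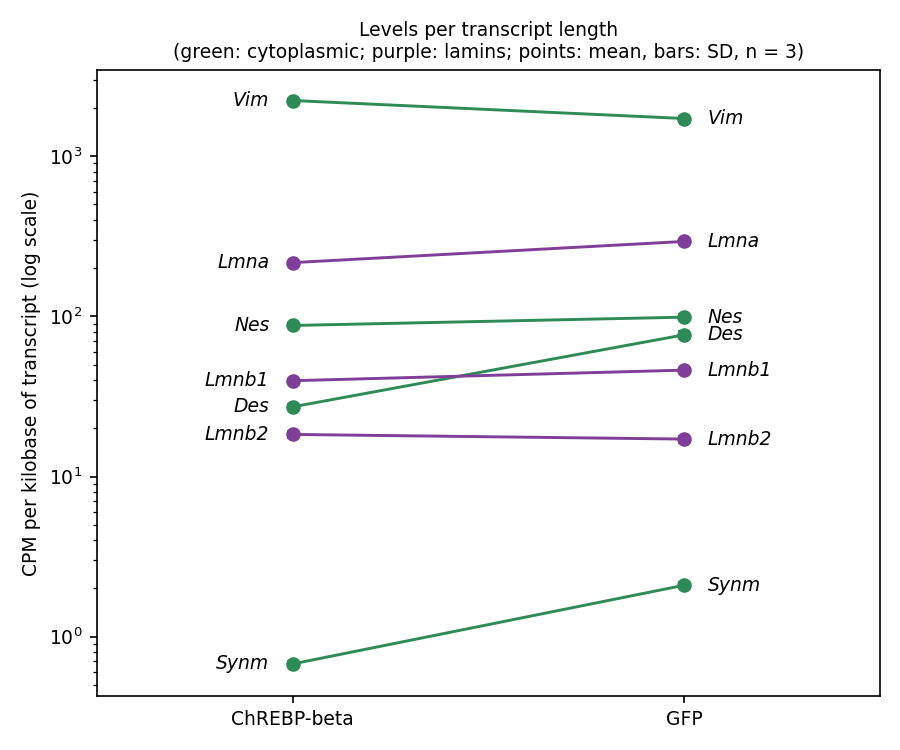
Mean level per kilobase of transcript with ChREBP-beta (left) and GFP (right) on a log axis, with SD bars (n = 3; cytoplasmic genes green, lamins purple). The line of Des crosses that of Lmnb1, at 27.2 CPM per kilobase with ChREBP-beta and 76.7 with GFP.

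Ratios of counts within a library, which no library scaling can move, showed how the mixture shifted. Vim had 58.5, 61.6 and 57.6 counts per Des count in ChREBP-beta replicates 1 to 3 and 17.7, 15.4 and 15.7 in GFP replicates 1 to 3, a 3.65-fold difference. The Nes to Des ratio was 6.85, 6.69 and 6.04 with ChREBP-beta and 2.64, 2.48 and 2.71 with GFP. The Synm to Des ratio moved little, at 0.0618, 0.0687 and 0.0620 with ChREBP-beta and 0.0707, 0.0692 and 0.0717 with GFP, so that both fell nearly in proportion (difference of log2 ratios -0.14). Per length, Vim made up 95.1% ± 0.208 of the 4 cytoplasmic transcripts with ChREBP-beta and 90.6% ± 0.616 with GFP, and Des made up 1.16% ± 0.0408 and 4.05% ± 0.281 (SD, n = 3 each).

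The lamin mixture shifted towards the B types. The count of Lmna over that of Lmnb1 plus Lmnb2 was 3.87, 3.69 and 4.002 in ChREBP-beta replicates 1 to 3 and 4.76, 4.85 and 4.89 in GFP replicates 1 to 3. The log2 ratio of Lmna to Lmnb1 differed by -0.22 (ChREBP-beta minus GFP), that of Lmna to Lmnb2 by -0.54 and that of Lmnb1 to Lmnb2 by -0.32. For each of the 7 ratios compared, the groups did not overlap, and the two-sided exact permutation p was 0.1 (0.1 after Benjamini-Hochberg adjustment), the smallest that 3 against 3 allows. The summed level per kilobase of the 4 cytoplasmic genes was 2341 ± 57.6 with ChREBP-beta and 1896 ± 56.8 with GFP, and that of the 3 lamin genes 274 ± 1.59 and 357 ± 4.69 (SD, n = 3 each; exact permutation p = 0.1 for each).

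**Figure D4:**
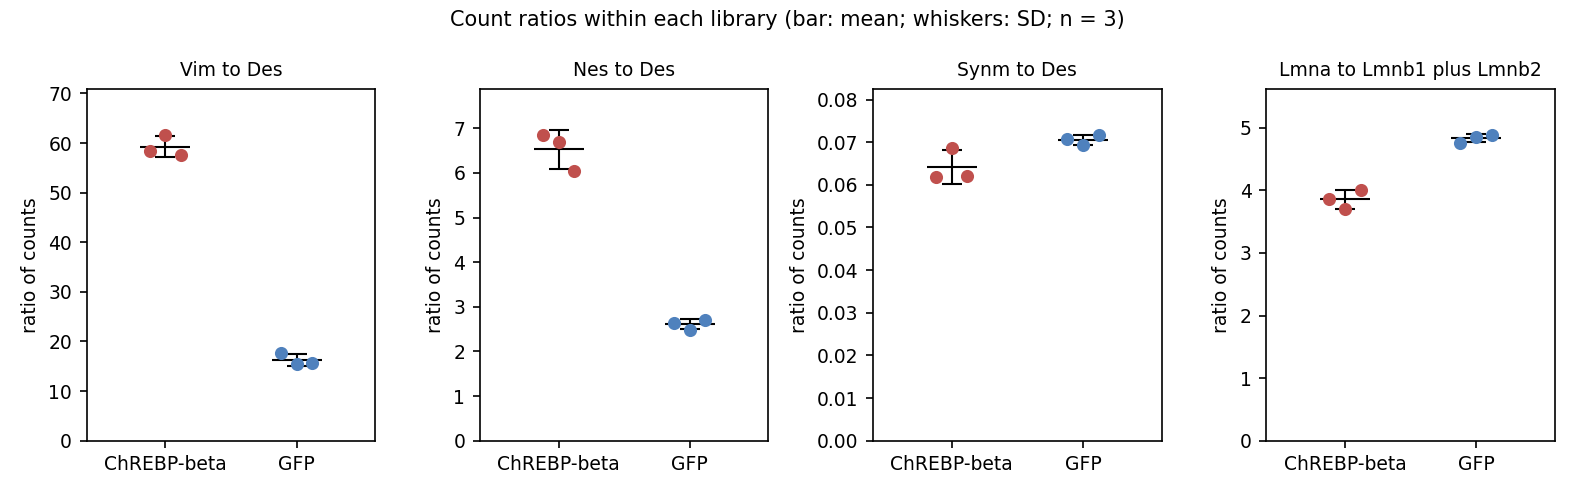
Count ratios in each of the 3 ChREBP-beta (left) and 3 GFP libraries (right), with mean and SD, each panel from 0. Vim and Nes per Des are higher with ChREBP-beta, Synm per Des is nearly level, and Lmna per B-type lamin is lower.

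Other intermediate filament genes moved both ways. Of 24 listed, 12 had enough counts to be tested: 3 were called higher, 6 lower and 3 not called, with a median log2 fold change of -0.53. Sync, the muscle filament protein syncoilin, fell 4.74-fold to 6.11 ± 1.17 CPM with ChREBP-beta, against 28.9 ± 2.30 CPM with GFP (SD, n = 3; edgeR adjusted p = 9.37e-15). The keratin genes Krt14 and Krt80 rose 1.64-fold and 1.68-fold, to 22.9 and 17.9 CPM with ChREBP-beta, against 14.0 and 10.7 CPM with GFP. Of the other keratin genes tested, Krt19 fell, with 28 counts over the ChREBP-beta and 69 over the GFP libraries (edgeR adjusted p = 0.00906), and Krt8, Krt10 and Krt18 were not called. Iffo2 rose 1.51-fold, and its deposited values and those of Sync are not all whole numbers. The neurofilament genes Nefl and Nefm, picked after their values were seen, had 3 and 6 counts over the ChREBP-beta libraries and 71 and 70 over the GFP libraries. Their deposited values are not all whole numbers either. Among genes with a mean of at least 5 CPM, where 5 of the list remained for testing, 3 were called higher and 2 lower.

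Linkers of filaments to membranes and to the rest of the cytoskeleton also moved both ways. Among 9 tested plakins and desmosome genes, 5 were higher, 3 lower and 1 not called (median log2 fold change 0.21). Plec, plectin, which crosslinks desmin and vimentin, was 1.16-fold lower at 1146 ± 13.8 CPM with ChREBP-beta, against 1328 ± 19.2 CPM with GFP (SD, n = 3; edgeR adjusted p = 1.06e-07). Jup, plakoglobin, fell 2.42-fold, while Ppl, periplakin, rose 1.604-fold and Macf1, a giant linker of actin and microtubules, 1.17-fold. Chaperones and proteases of filaments had 3 members higher, 8 lower and 4 not called of 15 tested (median -0.14). Hspa8, the constitutive heat shock cognate protein, rose 1.42-fold, whereas Hspb6, a small heat shock protein of muscle, fell 1.57-fold. Of the calpains, which cut desmin, Capn1 fell 1.603-fold and Capn2 rose 1.11-fold. Without GFP replicates 1 and 2, 7 of the 15 were called, 3 higher and 4 lower.

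Genes of proteins that hold the lamina moved both ways. Among 20 tested nuclear envelope and LINC complex genes, 10 were higher, 3 lower and 7 not called (median log2 fold change 0.12), a called share of 65.0%. Syne1, the giant nesprin of muscle nuclei, fell 2.16-fold to 12.2 ± 1.251 CPM with ChREBP-beta, against 26.4 ± 1.05 CPM with GFP (SD, n = 3; edgeR adjusted p = 7.43e-11). Lbr, the receptor of B-type lamins, rose 1.249-fold and Nrm, the inner membrane protein nurim, 1.68-fold. Tor1aip1, the lamin-binding protein LAP1, whose deposited values are not all whole numbers, was 1.22-fold lower. The enzymes that farnesylate, cut and methylate lamins, listed together with Narf, which is not such an enzyme, split. Of these 6 tested, 2 were higher, 2 lower, Narf among them, and 2 not called (median -0.03). Fntb and Icmt were 1.16-fold and 1.18-fold higher, Fnta and Narf, a partner of prelamin A, 1.147-fold and 1.28-fold lower. Zmpste24, the protease that matures prelamin A, had a log2 fold change of 0.03 and was not called (edgeR adjusted p = 0.472).

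Kinases that act on filaments and lamins were listed together with Ccnb1 and Cdk5r1, which are not kinases. Of these 12, 5 were higher, Ccnb1 among them, 4 lower, Cdk5r1 among them, and 3 not called (median log2 fold change 0.06). Cdk5r1, the activator of Cdk5, a kinase of nestin, fell 1.98-fold and Pak1 1.19-fold, while Rock2, a kinase of vimentin, rose 1.14-fold and Aurkb 1.203-fold. Proliferation genes, read because nestin and Lmnb1 mark dividing cells, had 9 of 12 higher, 1 lower and 2 not called (median 0.17), with Rrm2 at 2.78-fold, Pcna at 1.199-fold, Mcm2 at 1.19-fold and Top2a at 1.16-fold higher, and Ccne1 1.26-fold lower. With library size alone or upper-quartile scaling, 7 of these 12 were called higher and 1 lower. Nes and Lmnb1 were lower in the same libraries, and a link between them and the proliferation genes was not tested. Mesenchymal transition genes, among which vimentin is usually counted, divided, with 3 higher, 4 lower and 1 not called of 8 tested (median -0.17). Snai1 and Twist2 rose 2.60-fold and 2.53-fold and Fn1, fibronectin, 1.29-fold, close to Vim, but Snai2 fell 4.42-fold. The share of tested members called in these 8 lists ran from 65.0% to 88.9%, against 58.7% of all tested genes.

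**Figure D5:**
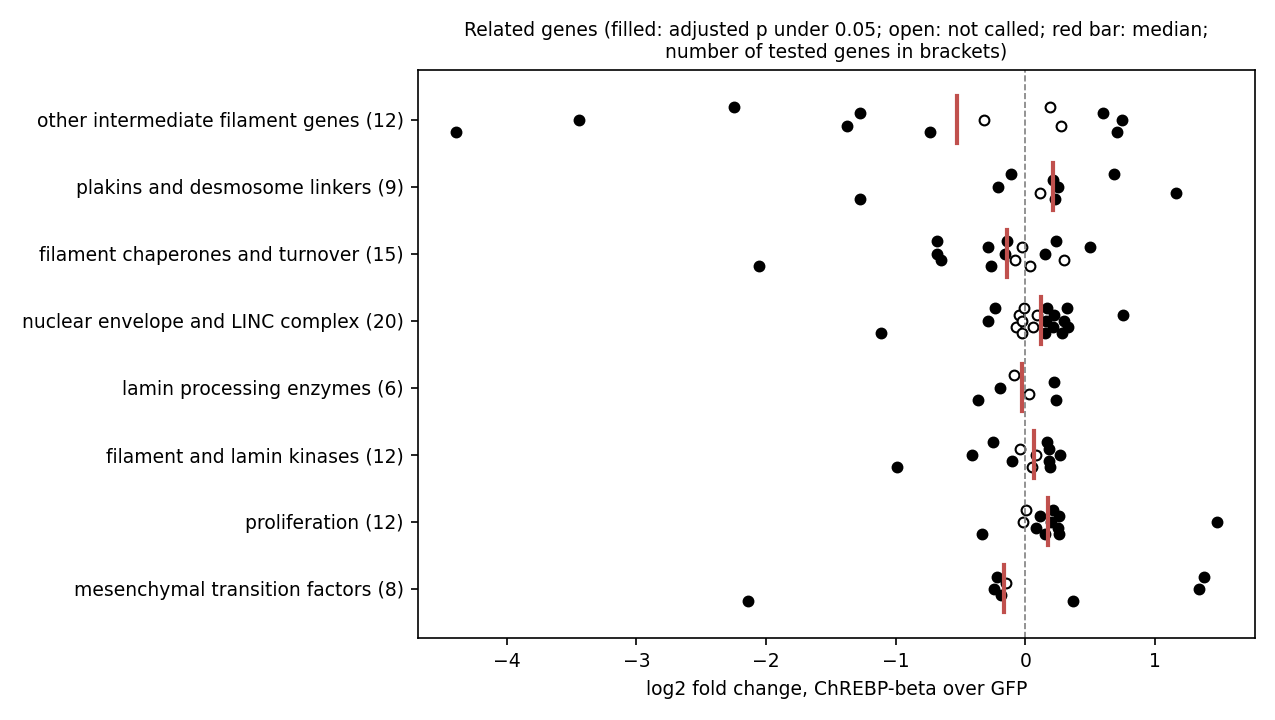
Log2 fold change, ChREBP-beta over GFP, of each tested member of the 8 lists of related genes; filled points passed the test, open points did not, and red bars are medians. Members of every list lie on both sides of 0.

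Markers of other cells that hold vimentin, desmin or synemin moved in part with the groups. The 7 fibroblast and fibro-adipogenic markers summed to 875 to 900 CPM with ChREBP-beta and 827 to 862 CPM with GFP, 4 called higher and 2 lower of 6 tested, led by Cd34 (477 and 572 CPM) and Ly6a (358 and 238 CPM). The 6 smooth muscle and pericyte markers summed to 1833 to 1896 CPM with ChREBP-beta and 1602 to 1650 CPM with GFP, 2 higher and 2 lower of 4 tested. Of these, Acta2, smooth muscle actin, stood at 1195 and 1263 CPM and Pdgfrb at 502 and 274 CPM with ChREBP-beta and GFP, whereas Myh11, the defining smooth muscle myosin, was near 0 (0.234 and 0.368 CPM). Their part in the Vim, Des and Synm differences was not tested. Markers of differentiating muscle summed to 0.957 to 1.69 CPM with ChREBP-beta and 13.8 to 17.1 CPM with GFP. Of the 8 listed, 3 were tested, and all 3 were called lower. Their part in the Des difference was not tested. For comparison with the calls in these marker lists, 29.5% of all tested genes were called higher and 29.3% lower. Endothelial (5.78 to 9.83 CPM with ChREBP-beta and 2.77 to 6.96 CPM with GFP), adipocyte (0.231 to 1.36 and 0.105 to 0.724 CPM) and blood and macrophage markers (19.8 to 24.4 and 8.21 to 24.2 CPM) were low in both groups.

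The genes whose 6 centred log2 CPM values lay nearest to those of a member, by Euclidean distance among 8740 genes, were taken 2 at a time. Since the groups dominate the pattern, this is mainly a likeness of fold change. For Des they were the collagen gene Col8a1 (distance 0.078) and Cnksr3 (0.13), and for Synm Cpe, carboxypeptidase E (0.13), and Col8a1 again (0.15). Vim was nearest to Eno1, the glycolytic enolase, whose deposited values are not all whole numbers (0.033), and the translation factor gene Eif4a1 (0.040). Nes was nearest to Lpcat4 (0.032) and Rab28 (0.034). Lmna was nearest to Slc25a4, a mitochondrial nucleotide carrier (0.028), and Flnc, the muscle filamin (0.048). Lmnb1 was nearest to Ppp1r9b (0.021) and Trim35 (0.041), and Lmnb2 to Inpp5k (0.051) and Ints10 (0.051). Within a distance of 0.2 lay 13 genes for Des and 10 for Synm, against 839 for Vim and 1254 for Nes.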

How the data were processed

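RNA from 6 libraries of C2C12 cells, 3 with ChREBP-beta and 3 with GFP by their titles, was analysed. The authors deposited a table of estimated counts, not normalized, with 1 row per symbol in most cases and 7.74% of values not whole. Per the submitters' processing notes, fastp, Bowtie2 2.0.0.5 and TopHat2 2.0.0 were used, and GRCg6a, which is a chicken assembly, is listed as the build, although the table carries mouse symbols. No source states the mouse build, the counting tool or the use of strand. Positions and lengths were taken by symbol from GENCODE M21 (GRCm38) for all 7 members.

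Rows of the 24 repeated symbols were summed and rounded. The test was edgeR 4.0.16 in R 4.3.3, with filterByExpr at a minimum count of 10 and minimum total of 15, TMM scaling, no covariates. SEs are the log2 fold change over the square root of F. The procedure was tested on simulated data. Promoter windows from RefSeq matched 6 of the 7 members. Replicates differed by more than sampling noise (chi-square per degree of freedom 2.15 to 3.93). Alternatives were other scalings and filters, DESeq2 1.42.0, limma-voom (limma 3.58.1), the replicate number as a block and each library left out. Leaving out GFP replicates 1 and 2 together, and the alternatives for class sums, were added after seeing the data.

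The members and lists were chosen with earlier results of these data known. Named are the 7 members, Mlxipl and, per list, up to 4 genes by smallest adjusted p, plus 1 of a called direction that these lack. Also named are the most abundant markers, and for each member the 2 nearest genes with a mean of at least 10 CPM and a regular symbol (prior count 2). Zmpste24, Nefl, Nefm, Krt8, Krt10, Krt18, Krt19, Myod1, Myf5, Pax7, Cdh15, Cd82, Itga7, Ncam1, Ccnb1, Sox2, Sox10, Myh11 and Ttc23 were added outside these rules, after seeing values.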

Additional observations from a re-analysis of the deposited data

How the results depend on the processing

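Of 336 results recomputed under an alternative setting, 327 were labelled unchanged, and none reversed. For members this meant the same direction and side of the threshold, and for ratios and class sums a move smaller than the spread between replicates. Counts of genes called were held to a looser rule, a fixed factor around the main count. By that rule 6505 to 6823 genes called with single libraries left out passed as unchanged, against 7145. Among the 7 members, Lmnb2 alone changed its call, to higher without GFP replicate 1 (log2 fold change 0.13, edgeR adjusted p = 0.0445; range over alternatives 0.0445 to 0.404); the cause was not tested. Library size alone moved the summed cytoplasmic level to a log2 difference of 0.26 and the lamin sum to -0.42, and upper-quartile scaling the lamin sum to -0.41, against 0.30 and -0.38. With a mean CPM of at least 5, where fewer genes are tested, 5 other intermediate filament genes were called. Without GFP replicates 1 and 2, with fewer samples, the cytoplasmic sum differed by 0.35, the log2 ratio of Lmna to Lmnb2 by -0.61 and of Lmnb1 to Lmnb2 by -0.40, and 7 chaperone and turnover genes were called. Leaving out single libraries gave Lmnb2 values of 0.061 to 0.13.

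Libraries with the same replicate number in both groups are not said to share a culture or preparation. The deviations of such libraries from their group means correlated at -0.018, 0.0015 and -0.040, which cannot show whether anything was shared. With the replicate number as a block, 6902 genes were called, and Des, Vim, Nes, Synm, Lmna and Lmnb1 kept their calls. Of the 7 members, Synm had the largest counting error, at 10.2% per ChREBP-beta library.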
